A study of Mus musculus with 12 samples.

Results

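Epithelial-mesenchymal transition (EMT) is the programme by which epithelial cells loosen their junctions and take on features of connective tissue cells. It is driven by a small set of DNA-binding proteins, namely the zinc finger factors of the Snail and ZEB families, the basic helix-loop-helix factors of the Twist family, the homeobox factor Prrx1 and the forkhead factor Foxc2. Several of these factors bind E-boxes in the promoters of epithelial genes and shut them off. The best known of those targets is Cdh1, which encodes E-cadherin, the adhesion molecule of epithelial junctions, and its loss is often accompanied by a gain of N-cadherin, encoded by Cdh2. In a mammary tumour the same factors are also normal products of fibroblasts and other connective tissue cells. The 10 genes described here are Snai1, Snai2, Zeb1, Zeb2, Twist1, Twist2, Prrx1, Foxc2, Cdh1 and Cdh2, taken by name from the 20660 genes that the array's accessions could be matched to. Of these 10 genes, 8 had a probe that passed the filter on dim signals, against 13275 genes kept in all.

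The tumours arose in FVB mice that carry the MMTV-Wnt1 transgene, in which a mouse mammary tumour virus promoter drives Wnt1, a secreted growth factor, in the mammary epithelium. All 4 groups carry this transgene, and they differ in the retinoic acid receptor beta gene and in the compartment taken from the tumour. KO epithelium and KO stroma came from Rarb -/- tumours, and WT epithelium and WT stroma came from tumours with the wild-type Rarb alleles, with 3 arrays in each group. Epithelium and stroma were cut out of stained sections by laser capture, so that each of 6 tumours gave both compartments. The tumours are KO 1, KO 3 and KO 4 and WT 1, WT 2 and WT 3. Each RNA, labelled with Cy3, was hybridised to a 2-colour Agilent array together with a universal mouse reference RNA labelled with Cy5. The sources used here do not give the making of the Rarb allele or the age of the mice. Nothing in the labels says whether any tumours shared a mouse, and p-values therefore cover only the spread among these samples.

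All values below are log2 ratios of tumour sample over reference RNA, the reverse of the log ratio in the scanner files. A difference was called where limma's p-value, adjusted over all 13275 genes by the Benjamini-Hochberg method, was under 0.05. On each array 36.0% to 46.3% of probes had a Cy3 signal well above background, and precision is limited by the number of arrays. The 6 epithelial arrays shared a slide and the 6 stromal arrays another, so slide and compartment cannot be told apart, and within each slide KO and WT arrays lay in different rows, so row and genotype cannot be told apart either. The probe of the targeted gene, Rarb, read -1.13, 1.36 and 0.50 in KO epithelium, against -0.76, 0.85 and 0.77 in WT epithelium, and 1.83, 2.09 and 0.57 in KO stroma, against -0.01, -0.29 and 1.37 in WT stroma. The genotypes overlapped in both compartments. Its position relative to the deletion is not known here, so it checks nothing about the genotype labels.

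The compartment labels were set against marker genes. The mean log2 ratio over 12 fibroblast markers, all measured, lay between 2.72 and 3.13 in KO stroma, between 0.01 and 1.47 in WT stroma, between -3.18 and -0.44 in KO epithelium and between -2.01 and 0.89 in WT epithelium. Over 10 luminal epithelial markers, all measured, the mean lay between 0.66 and 1.63 in KO stroma, 2.43 and 3.61 in WT stroma, 3.26 and 3.75 in KO epithelium and 2.99 and 3.65 in WT epithelium. WT stroma therefore overlapped WT epithelium in its luminal markers, and the epithelial array of tumour WT 2 read higher for fibroblast markers (0.89) than the stromal arrays of WT 1 (0.14) and WT 2 (0.01). Epcam and Muc1, both surface proteins of luminal cells, were not above background on any KO stroma array. Most luminal markers were, with 8, 8 and 7 of the 10 above background on the KO stroma arrays of tumours 1, 3 and 4. Array-wide log2 ratios of WT stroma and WT epithelium correlated at a mean r of 0.81 across genes, while those of KO stroma and KO epithelium correlated at 0.57. In bulk samples like these, fewer cells of a type and less RNA per cell cannot be told apart, and the part that the captured mixture of cells plays in the values below was not tested.

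Promoter sequence is shown for 5 genes that the results below turn on, to set the letters that Snail and ZEB proteins are known to bind beside the expression values. The E-box searched was CAGGTG, which reads CACCTG on the other strand, and it is in capitals where found. Each line runs 5′ to 3′ on the gene's own strand from 250 bases before to 50 bases after the annotated start, from RefSeq on GRCm38.p6. The first 2 are members, Snai1 at chr2:167537945-167538244 (plus strand) and Prrx1 at chr1:163313601-163313900 (minus strand). The other 3 are epithelial junction or polarity genes that were lower in KO stroma, Tjp3 at chr10:81291532-81291831 (minus strand), Patj at chr4:98395576-98395875 (plus strand) and Cldn3 at chr5:134985964-134986263 (plus strand). All 3 hold the E-box. Grhl1, also lower in KO stroma, is not shown and holds the E-box in neither of its 2 promoters.
Snai1: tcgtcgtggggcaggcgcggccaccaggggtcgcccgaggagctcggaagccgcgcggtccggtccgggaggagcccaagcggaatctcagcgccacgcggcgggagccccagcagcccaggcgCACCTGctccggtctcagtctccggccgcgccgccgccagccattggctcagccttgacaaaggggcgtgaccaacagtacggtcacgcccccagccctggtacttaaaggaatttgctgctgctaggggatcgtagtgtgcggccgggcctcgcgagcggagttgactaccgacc
Prrx1: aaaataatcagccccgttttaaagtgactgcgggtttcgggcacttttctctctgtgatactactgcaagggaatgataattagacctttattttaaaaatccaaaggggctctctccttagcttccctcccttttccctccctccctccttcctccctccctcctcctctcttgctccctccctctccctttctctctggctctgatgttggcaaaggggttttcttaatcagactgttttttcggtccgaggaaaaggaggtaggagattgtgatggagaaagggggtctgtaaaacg
Tjp3: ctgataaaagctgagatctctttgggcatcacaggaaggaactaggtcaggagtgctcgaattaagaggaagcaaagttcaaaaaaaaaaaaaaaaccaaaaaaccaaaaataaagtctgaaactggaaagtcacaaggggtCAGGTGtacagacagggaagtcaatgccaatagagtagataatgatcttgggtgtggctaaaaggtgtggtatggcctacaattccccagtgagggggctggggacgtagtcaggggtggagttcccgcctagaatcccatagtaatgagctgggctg
Patj: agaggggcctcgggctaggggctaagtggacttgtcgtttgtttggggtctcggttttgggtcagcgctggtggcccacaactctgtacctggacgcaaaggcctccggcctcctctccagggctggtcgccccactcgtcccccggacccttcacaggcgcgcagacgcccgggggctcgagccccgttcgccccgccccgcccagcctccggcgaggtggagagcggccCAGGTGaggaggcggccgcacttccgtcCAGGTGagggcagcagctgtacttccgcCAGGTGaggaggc
Cldn3: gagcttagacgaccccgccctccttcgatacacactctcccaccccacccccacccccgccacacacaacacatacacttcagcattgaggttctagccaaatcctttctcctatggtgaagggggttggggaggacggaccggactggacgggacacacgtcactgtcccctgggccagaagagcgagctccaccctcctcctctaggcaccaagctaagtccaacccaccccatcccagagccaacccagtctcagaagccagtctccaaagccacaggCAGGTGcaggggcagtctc
The E-box lies 126 bases before the start in Snai1 and 108 bases before it in Tjp3. In Patj it occurs 3 times, but only 1 of Patj's 3 annotated promoters, the one shown, holds it. In Cldn3 it begins at position 31 counted from the start. Its letters were not found in the Prrx1 window. Across RefSeq, 20.2% of 32851 promoters of this length hold it, and 22.6% of 27025 genes hold it in at least 1 promoter.

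Snai1, which encodes the zinc finger repressor Snail, was higher in the stroma than in the epithelium of KO tumours. Its log2 ratio was -0.06, 0.23 and 0.16 in KO stroma (tumours 1, 3 and 4) and -0.59, -1.25 and -0.46 in WT stroma (tumours 1, 2 and 3). In KO epithelium it was -1.29, -1.61 and -1.43, and in WT epithelium -1.46, -0.78 and -2.01, with the probe above background on 1 and 2 of the 3 arrays. All KO stroma arrays lay above all WT stroma arrays, whereas KO and WT epithelium overlapped. Snai1 was 2.93-fold higher in stroma than in epithelium of KO tumours (log2 difference 1.55, SE 0.36, limma adjusted p = 0.0287), a call that was lost when any of the 3 KO tumours was left out (adjusted p = 0.0822 to 0.121). The difference of 0.87 between KO and WT stroma did not pass (95% interval 0.21 to 1.54, adjusted p = 0.115), nor did that of 0.65 between stroma and epithelium in WT tumours (adjusted p = 0.664). In epithelium the genotypes differed by -0.02 (95% interval -0.69 to 0.64).

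Snai2, which encodes Slug, the Snail family member known from basal mammary cells, was measured on all 12 arrays and had no called difference in any comparison. It read 0.25, 1.05 and 0.06 in KO epithelium and 1.03, 0.73 and 0.54 in WT epithelium. In stroma it read -0.54, 0.43 and 0.56 for KO and 0.51, 0.43 and 0.45 for WT. The 4 groups overlapped apart from WT stroma, whose 3 arrays lay just below the 3 of WT epithelium. KO minus WT was -0.31 in epithelium (95% interval -1.03 to 0.40) and -0.31 in stroma (95% interval -1.02 to 0.40). Stroma minus epithelium was -0.30 both in KO and in WT tumours.

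Zeb1 had the largest difference between compartments among the members. This zinc finger and homeodomain factor represses E-cadherin and the polarity genes of epithelium. Its log2 ratio was -0.28, -0.06 and 0.55 in KO stroma and -3.27, -3.06 and -4.14 in KO epithelium. WT stroma had -1.41, -0.79 and -1.30 and WT epithelium had -3.14, -1.73 and -4.13. The probe was above background on all 6 stromal arrays and on 2 of 3 arrays of each epithelium. The order of the group means ran from KO stroma (0.07 ± 0.43) through WT stroma (-1.17 ± 0.33) and WT epithelium (-3.0 ± 1.2) to KO epithelium (-3.49 ± 0.57; SD, n = 3 each), and only the last 2 overlapped. In KO tumours Zeb1 was 11.8-fold higher in stroma (log2 difference 3.56, SE 0.45, adjusted p = 0.0044), and this call held under 10 of 10 other settings. Some of those settings left its ratios as they were, and the filter on all 12 arrays, which removes Zeb1, is not among them. In WT tumours stroma exceeded epithelium in all 3 (1.73, 0.94 and 2.82), but the mean of 1.83 did not pass (adjusted p = 0.419). KO minus WT was 1.24 in stroma (95% interval 0.08 to 2.40, adjusted p = 0.2) and -0.49 in epithelium (95% interval -1.65 to 0.67), neither of which passed.

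Zeb2, the second ZEB factor, was read by 2 probes that disagreed. The brighter probe, which stands for the gene in the tests, gave 0.36, 0.80 and 0.07 in KO stroma, -1.35, -0.58 and 0.14 in WT stroma, -1.28, -0.29 and 0.27 in KO epithelium and -0.16, 0.83 and 2.77 in WT epithelium. The second probe gave 0.24, 1.53 and 0.42 in KO stroma, -1.28, -1.44 and -0.60 in WT stroma, -2.09, -2.0 and -2.81 in KO epithelium and -1.46, -1.25 and -2.05 in WT epithelium. Both probes had a higher mean in KO than in WT stroma, without overlap for the second probe. They differed most on the epithelial array of tumour WT 3, which was the highest of 12 for the brighter probe and among the lowest for the second. On that array the brighter probe exceeded its next highest value by 3.99 log2 units in Cy3 and by 1.47 in Cy5, the channel that holds the same reference RNA on every array. Of 55443 probes, 427 stood out in both channels in this way on that array (by at least 3 in Cy3 and 1 in Cy5), against 0 to 7 on each of the other arrays. The 2 genes whose ratios were most like those of the brighter probe over the 12 arrays were Adamts16 and Ube2j1 (r = 0.998 each). The second probe's Cy5 signal stayed between 9.35 and 9.86 on the log2 scale.

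**Figure D1:**
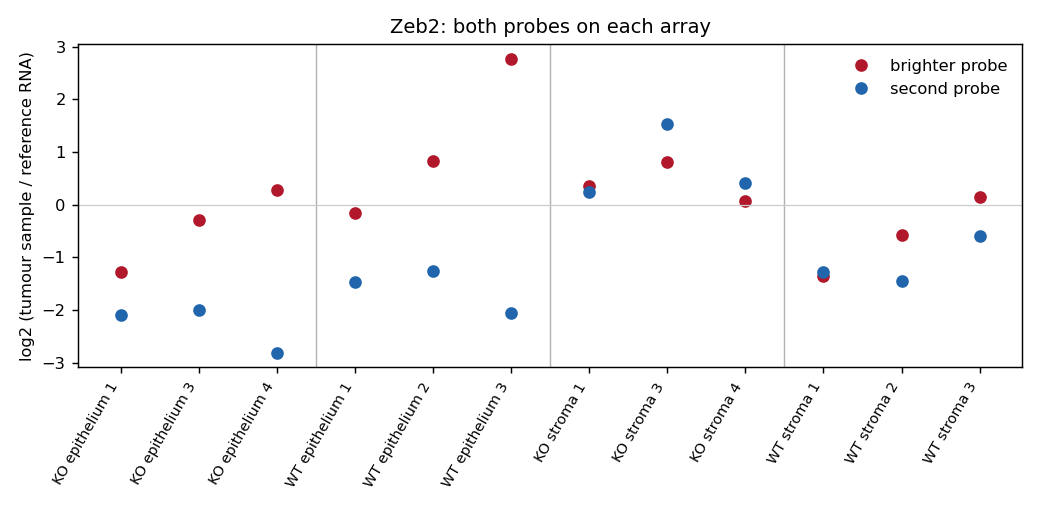
Log2 ratio of tumour sample over reference RNA (vertical axis) for both Zeb2 probes on each of the 12 arrays (horizontal axis), with the epithelial arrays of KO and WT tumours left of the stromal arrays of KO and WT tumours. The brighter probe reaches 2.77 on the array of WT epithelium 3 where the second probe reads -2.05, while in KO stroma both lie between 0.07 and 1.53.

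The tests of Zeb2 depended on the probe. With the brighter probe KO minus WT was 1.01 in stroma (adjusted p = 0.44) and -1.58 in epithelium (adjusted p = 0.614), and the epithelial difference shrank to -0.77 without WT replicate 3. With the second probe, a choice made after the values were seen, KO minus WT in stroma was 1.83 and passed (adjusted p = 0.0231). With it, stroma exceeded epithelium by 3.03 in KO tumours (adjusted p = 0.00388), against 0.85 with the brighter probe (adjusted p = 0.194). In WT tumours stroma minus epithelium was -1.74 with the brighter probe and 0.48 with the second, and neither passed (adjusted p = 0.419 and 0.783).

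Twist1 and Twist2 encode related basic helix-loop-helix factors that act in mesoderm and in EMT. The Twist1 probe was above background on the 3 KO stroma arrays and on no other array, so it passed the filter through KO stroma alone and a difference was built into its selection. Its log2 ratios were 0.51, 0.84 and 0.46 in KO stroma, -0.18, -0.46 and -0.01 in WT stroma, -0.69, -0.20 and -0.46 in KO epithelium and -0.79, -0.02 and -0.61 in WT epithelium. In the Cy3 channel, Twist1 was at least 1.54-fold higher in KO stroma than in WT stroma and at least 1.45-fold higher than in KO epithelium. These bounds compare mean Cy3 signals of 2 groups without allowance for the spread among arrays. The filter had fixed their direction too, so they are given as a description only. On each array of the dimmer group, a signal under that array's lowest signal above background was raised to it. In WT stroma this moved the mean log2 Cy3 signal from 6.51 to 6.55. The bounds are open to dye bias since no dyes were swapped. The fit gave an adjusted p of 0.0643 between KO and WT stroma and of 0.0265 between stroma and epithelium of KO tumours, the second of which rose to between 0.0873 and 0.113 without any 1 KO tumour, and nothing is read from either because the filter had fixed the direction. Over both genotypes the reference channel of the Twist1 probe was 0.33 lower on the stromal arrays and its Cy3 channel 0.32 higher, so about as much of the ratio between compartments lies in Cy5 as in Cy3. Because it passed the filter through KO stroma alone, Twist1 is left out of the counts over the members below.

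Twist2 was above background on all 6 stromal arrays, on all 3 WT epithelium arrays and on 2 of 3 KO epithelium arrays. It read -2.70, -1.52 and -1.48 in KO stroma and -4.33, -2.76 and -2.52 in WT stroma. In epithelium it read -4.36, -3.23 and -4.27 for KO and -3.91, -2.66 and -4.06 for WT. The ranges of KO and WT overlapped in both compartments, and the lowest value of each stroma came from tumour 1. In KO tumours Twist2 was 4.16-fold higher in stroma than in epithelium (log2 difference 2.06, SE 0.41, adjusted p = 0.0179), again not past the threshold without any 1 KO tumour (adjusted p = 0.0593 to 0.0877). KO minus WT in stroma was 1.30 with a 95% interval of 0.05 to 2.56 and did not pass (adjusted p = 0.212), and WT tumours gave 0.34 between compartments (adjusted p = 0.888).

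Prrx1 was the member called between KO and WT stroma. It encodes a paired-related homeobox factor of limb and connective tissue mesenchyme. Its brighter probe read -0.20, 0.14 and -0.42 in KO stroma, against -1.62, -1.74 and -0.73 in WT stroma. KO epithelium had -2.50, -2.36 and -2.71 and WT epithelium had -2.22, -1.77 and -2.70. KO stroma lay above WT stroma without overlap, and the 2 epithelia overlapped. Prrx1 was 2.30-fold higher in KO than in WT stroma (log2 difference 1.20, SE 0.31, 95% interval 0.52 to 1.88, adjusted p = 0.0453). This call lay close to the threshold and was lost in 10 of 14 other settings, with a difference between 0.96 and 1.96 and an adjusted p between 0.0175 and 0.194, and it was lost without any single stromal array other than that of WT 3. The second probe gave 0.02, 0.22 and -0.21 in KO stroma and -0.98, -1.42 and -0.44 in WT stroma, a difference of 0.96 that did not pass (adjusted p = 0.0589). In KO tumours Prrx1 was 5.15-fold higher in stroma than in epithelium (log2 difference 2.36, SE 0.35, adjusted p = 0.00689), a call kept in 10 of 10 other settings. In WT tumours it was higher in stroma in all 3 (0.59, 0.03 and 1.98) without passing (mean 0.87, adjusted p = 0.544). Over both genotypes the reference channel of this probe was itself 0.65 lower on the stromal arrays, while the Cy3 channel was 0.97 higher, so part of the ratio between compartments lies in Cy5. Between KO and WT stroma its Cy5 signal differed by -0.05.

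Foxc2, a forkhead factor of mesenchyme and vessels, passed background on 1 of 12 arrays, from KO stroma, and was not tested. Its log2 ratios were -1.95, -2.06 and -1.99 in KO stroma and -2.58, -2.77 and -2.18 in WT stroma, and between -3.41 and -2.71 on the 6 epithelial arrays.

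Cdh1 was not measured above background. The only probe matched to it, with 10 spots per array, was not well above background in Cy3 or Cy5 on any of the 12 arrays, tumour epithelium and reference RNA included. Its ratios, between 0.22 and 0.45 in epithelium and between -0.07 and 0.20 in stroma, are ratios of 2 signals near background and give no fold for E-cadherin mRNA. Cdh2 was above background on all 12 arrays with both of its probes. The brighter probe read -0.24, -0.99 and 0.30 in KO stroma, -1.33, -2.27 and -0.40 in WT stroma, -0.27, -2.17 and -0.68 in KO epithelium and -0.70, -0.88 and -0.46 in WT epithelium, so that all 4 groups overlapped. The second probe lay between -1.92 and -0.33 in KO stroma, -2.11 and -1.21 in WT stroma, -3.06 and -1.23 in KO epithelium and -1.27 and -0.32 in WT epithelium. KO minus WT in stroma was 1.02 with the brighter probe (95% interval -0.21 to 2.25, adjusted p = 0.33) and 0.30 with the second (adjusted p = 0.8). Stroma minus epithelium was 0.73 in KO tumours (adjusted p = 0.169) and -0.65 in WT tumours (adjusted p = 0.629), and no comparison of Cdh2 passed.

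**Figure D2:**
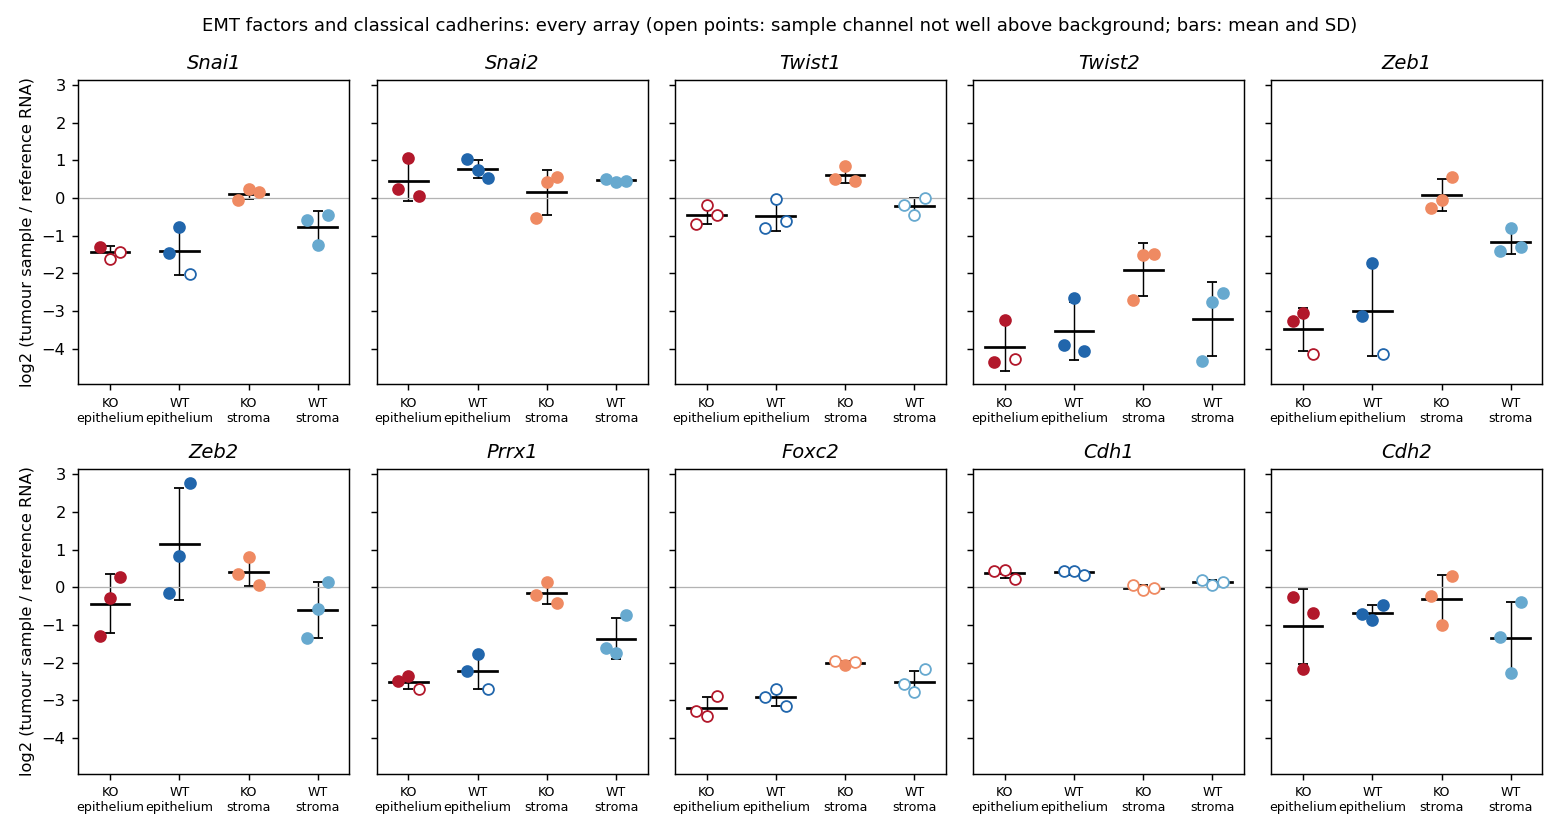
Log2 ratio of tumour sample over reference RNA (vertical axis, the same scale in every panel) on each of the 3 arrays of the 4 groups for the 10 genes. Bars give the mean and SD, and open points mark arrays on which the Cy3 signal was not well above background. Zeb1 and Prrx1 separate both stromal groups from both epithelial groups, Snai2 and Cdh2 do not, and all 12 points of Cdh1 are open.

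Between KO and WT epithelium none of the 7 tested members other than Twist1 was called, where 1 gene (0.00753%) was called among all 13275 and 1070 had an unadjusted p under 0.05, Zeb2 among them. The median of these 7 differences was -0.36, against 0.03 over all genes, and all 7 were negative, where 54.1% of all genes were positive. These signs were unstable. Without WT epithelium 2, Snai1 (0.294), Zeb1 (0.143) and Twist2 (0.0314) were positive, while Snai2, Zeb2, Prrx1 and Cdh2 stayed negative. With all arrays, Prrx1's second probe gave 0.0313. Of the 12 fibroblast markers, 1 was positive in this comparison, with a median of -0.93, and their part was not tested. Between KO and WT stroma 1 of the 7, Prrx1, was called, where 6.47% of all genes were called in either direction. Of the 7, Snai1, Zeb1 and Prrx1 lay higher in KO stroma without overlap, where 13.1% of all genes did so. The median difference of the 7 was 1.02, against -0.01 over all genes, and 6 differences were positive, Snai2 being the exception, where 48.4% of all genes were positive. In the reference channel alone, which holds the same RNA on every array, 36 of the 13275 genes were called between KO and WT epithelium and 0 between KO and WT stroma. No member was among them, and the largest Cy5 difference of a member was -0.473 in epithelium, for the brighter Zeb2 probe, and 0.173 in stroma.

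**Figure D3:**
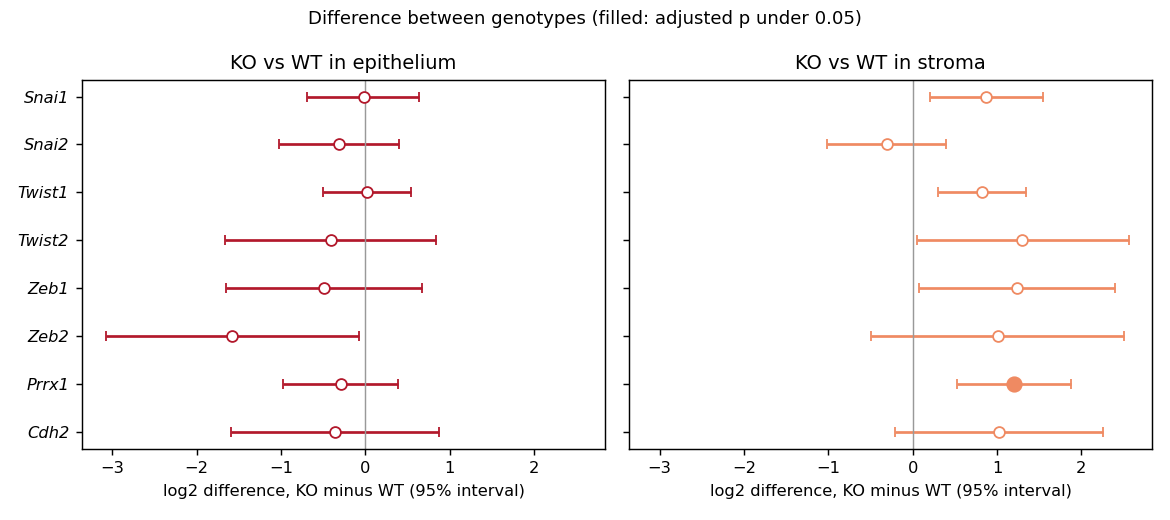
Log2 difference, KO minus WT (horizontal axis), with its 95% interval for the 8 tested members in epithelium (left) and stroma (right). Filled points passed the adjusted threshold. Prrx1 in stroma (1.20) is the filled point, the stromal difference of Snai2 (-0.31) lies left of 0, Twist1 is drawn although the filter fixed its direction, and all epithelial intervals except that of Zeb2 span 0.

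Within tumours, 4 of the 7 tested members other than Twist1 were higher in stroma of KO tumours (Zeb1, Prrx1, Twist2 and Snai1), where 20.2% of all genes were called in either direction and 10.2% were called higher. In WT tumours none of the 7 was called, with 1 of 13275 genes (0.00753%) called and 1171 at an unadjusted p under 0.05. Zeb1 and Prrx1 were higher in the stroma of all 6 tumours. Snai1 was higher in the stroma of 3 of 3 KO tumours and of WT 1 and WT 3, but lower in that of WT 2 (-0.46). With Agilent's processed signals in place of the normexp-corrected ones, the log2 difference between compartments of KO tumours was larger, at 5.17 for Zeb1, 4.07 for Prrx1, 3.59 for Twist2 and 2.96 for Snai1, the last without passing (adjusted p = 0.0713). In WT 2 the fibroblast markers were also lower in stroma (0.01) than in epithelium (0.89).

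The direct test asked whether the difference between genotypes itself differed between compartments. No gene passed it among 13275, while 18.1% had an unadjusted p under 0.05, and no member passed either. The values were 2.59 for Zeb2 (adjusted p = 0.112), 1.73 for Zeb1 (adjusted p = 0.227), 1.71 for Twist2 (adjusted p = 0.207), 1.5 for Prrx1 (adjusted p = 0.197), 1.38 for Cdh2 (adjusted p = 0.205) and 0.00 for Snai2. Prrx1 passed without WT replicate 3 (2.05, adjusted p = 0.048). A genotype difference confined to stroma is therefore not shown for any of the 8 genes.

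**Figure D4:**
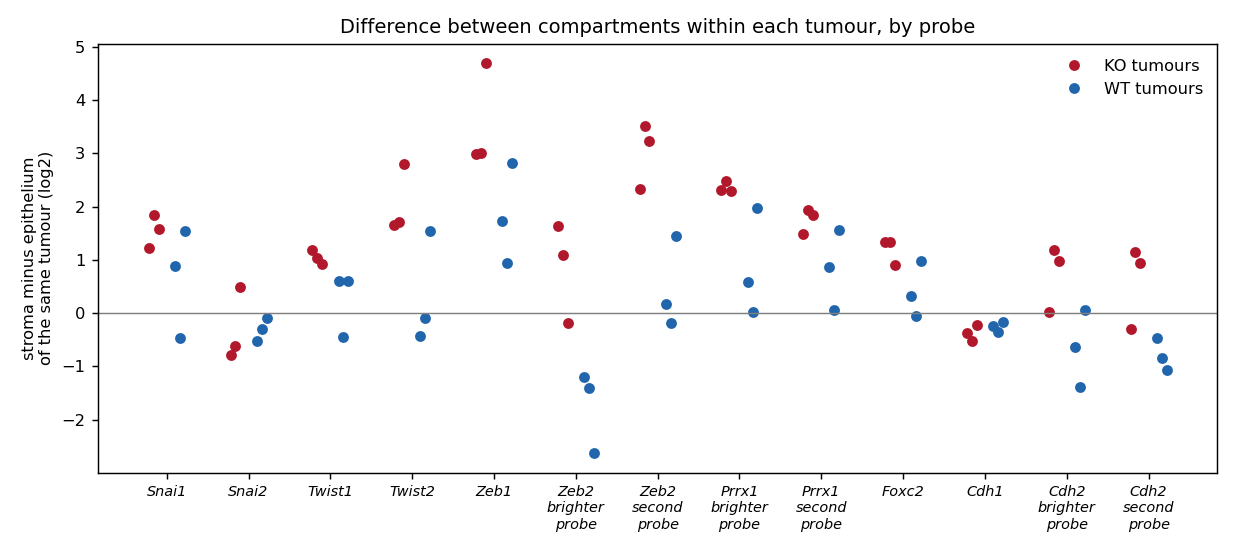
Stroma minus epithelium of the same tumour on the log2 scale (vertical axis) for each probe of the 10 genes (horizontal axis), with 3 KO tumours in red and 3 WT tumours in blue. Every KO point of Zeb1 lies at 2.99 or above and every KO point of Prrx1's brighter probe between 2.29 and 2.49, while WT points of the same probes reach down to 0.94 and 0.03. The Cdh1 points come from signals at background.

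Genes that these factors are known to act on were counted from one list of epithelial genes and one of mesenchymal genes. Of 25 epithelial genes that EMT factors repress, all tested, 11 fell in KO stroma relative to WT stroma and none rose, where 2.95% of all genes fell. Their median difference was -1.04, against -0.01 over all genes. Esrp1 was counted by a probe that read 2.97 on the WT epithelium 3 array and at most 0.01 on any other array. That probe gave 0.57 between KO and WT stroma, and the second Esrp1 probe gave -2.1. Marveld3, a tight junction membrane protein, averaged 1.08 ± 0.46 in KO and 3.65 ± 0.43 in WT stroma (difference -2.57, adjusted p = 0.00395). Its second, dimmer probe gave -0.55. Tjp3, the junction scaffold ZO-3, averaged 1.43 ± 0.32 in KO stroma and 3.51 ± 0.44 in WT stroma (difference -2.08, adjusted p = 0.00395). The claudin gene Cldn3 averaged 4.19 ± 0.65 in KO stroma and 6.54 ± 0.42 in WT stroma (difference -2.34, adjusted p = 0.00575), and the epithelial transcription factor gene Grhl1 averaged 0.76 ± 0.39 in KO stroma and 2.73 ± 0.42 in WT stroma (difference -1.97, adjusted p = 0.00676; SD, n = 3 in each group). These 4 calls held under 15 of 15 other settings. The list shares Cldn3, Cldn7, Epcam and Spint1 with the luminal markers above, of which 5 of 10 fell in the same comparison.

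Between compartments of KO tumours 16 of the 25 epithelial genes fell in stroma and none rose, where 10% of all genes fell, with a median of -1.58 against -0.04 over all genes. Cldn3 had -3.51 (adjusted p = 0.00205), Grhl1 -3.43 (adjusted p = 0.00178), Marveld3 -2.52 (adjusted p = 0.00205) and the polarity scaffold gene Patj -2.06 (adjusted p = 0.00215). Patj has 4 other probes, which gave -1.73 to -0.06. Between KO and WT stroma the brightest Patj probe gave -1.44 and the 4 others gave -1.42 to -0.14. In WT tumours none of the 25 was called and the median was -0.34. In KO against WT epithelium none was called and the median was 0.10.

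The E-box CAGGTG stood in a promoter of 13 of the 16 genes of the epithelial list that have a RefSeq promoter entry (81.2%). Tjp3, Patj, Cldn3 and Epcam were among them. It stood in 2 of 14 genes of the mesenchymal list (14.3%) and in 22.6% of all genes. The epithelial list was chosen as genes that EMT factors repress, so a high share was partly built into it and is no result of these arrays. Of the epithelial genes that fell in KO stroma, 5 of 7 with an entry hold it (71.4%, against 81.2% over the list). Grhl1 fell without these letters in either of its 2 promoters. Of the members, 1 of 5 with an entry, Snai1, holds it. Cdh1, Cdh2, Snai2, Zeb1 and Foxc2 have no entry, so their promoters were not searched. A match of letters is a description of the window and does not show binding.

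Of 20 mesenchymal genes of EMT, 19 were tested, and 3 rose in KO relative to WT stroma and none fell, where 3.53% of all genes rose. The median difference was 2.29, against -0.01 over all genes. The list shares Col1a1, Col1a2 and Col3a1 with the fibroblast markers. The fibronectin receptor subunit gene Itga5 averaged -0.19 ± 0.32 in KO stroma and -1.49 ± 0.15 in WT stroma (difference 1.30, adjusted p = 0.00691), and this call held under 14 of 14 other settings. Vim, the intermediate filament of mesenchymal cells, averaged -0.16 ± 0.67 in KO stroma and -3.08 ± 0.22 in WT stroma (difference 2.92, adjusted p = 0.0292), a call that 4 of 15 other settings lost (adjusted p up to 0.103). Fbn1, which encodes the microfibril protein fibrillin, averaged 2.82 ± 1.16 in KO stroma and 0.34 ± 0.93 in WT stroma (difference 2.47, adjusted p = 0.0317), and 6 of 14 other settings lost this call (adjusted p up to 0.107). In KO tumours 13 of the 19 were higher in stroma, where 10.2% of all genes were, with a median of 3.32, S100a4 (4.30) and Vim (3.76) among them. In WT tumours none was called, and the median was 0.98.

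Of 12 tested relatives and partners of the EMT factors, none was called between genotypes, where 6.47% of all genes were called in stroma. Prrx2, the closest relative of Prrx1, read 0.35, -0.04 and 0.87 in KO stroma and -1.64, -3.32 and -0.46 in WT stroma, a difference of 2.20 that did not pass (adjusted p = 0.0635). In KO tumours 4 of the 12 were called, where 20.2% of all genes were. Prrx2 (3.0, adjusted p = 0.0062) and Id3 (0.86, adjusted p = 0.0166) were higher in stroma, while Id2 (-1.58, adjusted p = 0.00939) and Id4 (-1.61, adjusted p = 0.0228) were lower. The call of Prrx2 held under 11 of 11 other settings. That of Id3 was lost in 4 of 11 (adjusted p up to 0.0769), that of Id4 in 3 of 11 (difference -1.94 to -0.915, adjusted p up to 0.364) and that of Id2 in 1 of 11 (adjusted p = 0.05). Id proteins bind basic helix-loop-helix factors and keep them off DNA. Of 13 tested corepressors and regulators 1 was called between KO and WT stroma, a share near the 6.47% of all genes called. It was Csnk1a1, which encodes casein kinase 1 alpha, a kinase of the beta-catenin destruction complex (difference -0.56, adjusted p = 0.0437). Of 15 other settings, 8 lost this call. In KO tumours Csnk1a1 (-0.88), the corepressor gene Ctbp2 (-0.98) and the Polycomb genes Ezh2 (-1.04) and Suz12 (-0.66) were lower in stroma, 4 of 13 past the threshold where 10% of all genes were lower. Of 11 other settings, 5 lost the call of Suz12 (adjusted p up to 0.144), 3 that of Ezh2 (up to 0.118), 3 that of Ctbp2 (up to 0.0817) and 2 that of Csnk1a1 (up to 0.0652).

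Among 16 other classical and type II cadherins 6 were measured. None was called between genotypes. In KO tumours Cdh3, the P-cadherin of basal epithelium, was lower in stroma (-1.51, adjusted p = 0.0101), 1 of the 6 where 10% of all genes were lower. Cdh11, a cadherin of fibroblasts and bone (1.93, adjusted p = 0.017), and Cdh5, the VE-cadherin of endothelium (1.49, adjusted p = 0.0211), were higher, 2 of the 6 where 10.2% of all genes were. Cdh11 was not above background on any KO epithelium array and was at least 1.89-fold higher in KO stroma in the Cy3 channel. The call of Cdh11 was lost in 3 of 10 other settings (difference 1.77 to 5.03, adjusted p up to 0.0852), that of Cdh5 in 2 of 10 (1.19 to 3.39, adjusted p up to 0.0986) and that of Cdh3 in 2 of 11 (adjusted p up to 0.0567). Of 13 catenin and adherens junction genes 8 were tested. Ctnnb1, which encodes beta-catenin, the cadherin partner and the effector of Wnt signalling, was lower in stroma of KO tumours (-1.21, adjusted p = 0.00887). It was the 1 called of these 8, a share near the 10% of all genes that were lower. Between KO and WT stroma it read -0.99, -0.09 and -0.79 in KO and -0.09, 0.01 and -0.02 in WT, a difference that did not pass (-0.60, adjusted p = 0.293).

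As a description over 12 arrays that share 6 tumours and a reference RNA, the ratio of Zeb1 was most like those of St8sia4 (r = 0.974) and Tgfbi (r = 0.971), and that of Prrx1 was most like those of Thbd (r = 0.981) and Akap12 (r = 0.978). Snai1 was most like Susd2 (r = 0.985) and Ccdc9b (r = 0.973), Twist1 like Emilin2 (r = 0.971) and Jam2 (r = 0.961), and Twist2 like Crabp1 (r = 0.944) and Runx1t1 (r = 0.925). Cdh2 was most like Pdpn (r = 0.891) and Nes (r = 0.884), and Snai2 like Cisd1 (r = 0.911) and Wdr13 (r = 0.902).

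Marker levels of other cell types also differed between the arrays. Macrophage markers, 8 of 10 measured, had mean log2 ratios of 3.72 to 4.25 in KO stroma, 1.22 to 2.74 in WT stroma, 0.47 to 1.65 in KO epithelium and 0.97 to 2.02 in WT epithelium. Basal epithelial markers, all 9 measured, lay between 1.83 and 3.20 in KO stroma, 3.46 and 3.85 in WT stroma, 2.68 and 3.92 in KO epithelium and 1.98 and 4.34 in WT epithelium. Endothelial markers, 9 of 10 measured, lay between 1.54 and 2.43 in KO stroma, 0.86 and 1.34 in WT stroma, 0.25 and 0.77 in KO epithelium and 1.04 and 1.30 in WT epithelium. T cell markers, 4 of 6 measured, lay between -1.64 and 0.30 in KO stroma, -1.26 and 3.64 in WT stroma, -1.89 and -1.67 in KO epithelium and -2.44 and -1.26 in WT epithelium, the value of 3.64 coming from WT stroma 2. Adipocyte markers, 5 of 6 measured, lay between 1.09 and 5.49 in KO stroma, 0.71 and 1.27 in WT stroma, -0.65 and 1.23 in KO epithelium and 0.34 and 3.12 in WT epithelium, with KO stroma 3 at 5.49 and WT epithelium 2 at 3.12. Of the 12 fibroblast markers 4 rose in KO relative to WT stroma, Fap, Col5a1, Col6a2 and Pdgfra, and all 12 were higher in stroma within KO tumours. The fibroblast, macrophage and endothelial means were higher on each KO stroma array than on any WT stroma array, as were Zeb1, Prrx1 and Snai1, and their part in those results was not tested.

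**Figure D5:**
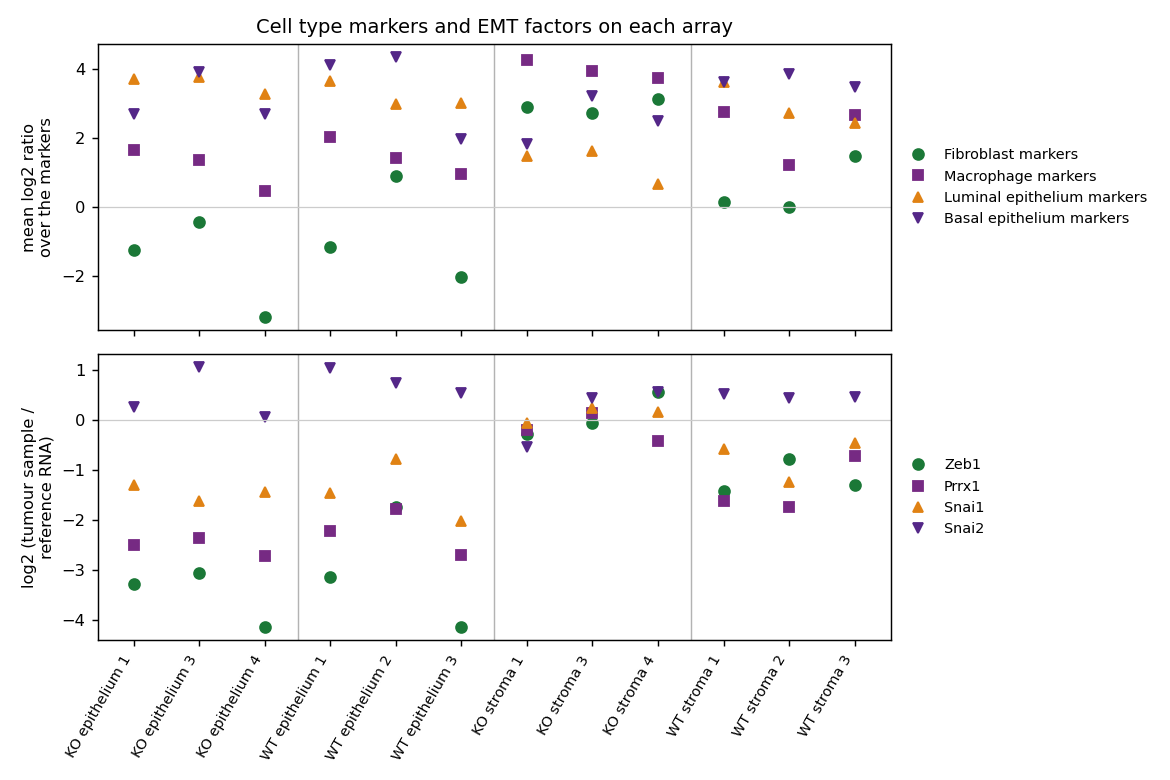
Top, mean log2 ratio over the fibroblast, macrophage, luminal and basal markers on each array. Bottom, log2 ratio of Zeb1, Prrx1, Snai1 and Snai2 on the same arrays. The 3 KO stroma arrays have the highest fibroblast means (2.72 to 3.13) and the highest Zeb1 and Prrx1 values, and Snai2 stays between -0.54 and 1.05 throughout.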

How the data were processed

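Expression was measured on 12 two-colour Agilent arrays, 1 for each compartment of 6 tumours, in 4 groups of 3. Per the labels, Cy3 marked the tumour RNA and Cy5 a universal mouse reference, and the dyes were never swapped. Per the file headers, the scanner output came from Agilent Feature Extraction 10.7.3.1. The deposited scanner tables hold, for each spot and colour, its median intensity, the median of the surrounding background, a processed intensity corrected by Agilent's software, quality flags and Agilent's log10 ratio, with Cy5 in the numerator. How the log2 values of the deposited series table were made is not stated. Its epithelial columns ran as reference over sample (r with sample over reference between -0.925 and -0.895 across non-control spots, which are not independent replicates), with medians between -0.035 and 0.0343. Its stromal columns, with medians between -0.00731 and 0.0293, matched no array (r between -0.00492 and 0.00157) and were left out, their scale, row order and direction being unknown.

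Of 62976 spots per array 3671 were controls. The normexp correction (offset 50) and loess within arrays were applied, non-uniform spots were set missing, and spots of a probe were averaged to 55681 probes. No spot was saturated. Accessions named 27235 probes through a RefSeq table of assembly GRCm38.p6. The file headers name another build, so only promoter sequences carry coordinates. Probes entered the tests if at least 3 of 12 arrays had Cy3 well above background and none was missing, and the brightest such probe stood for its gene. Genotypes were compared with limma 3.58.1 in R 4.3.3 in a fit of 4 group means with 8 residual degrees of freedom. Compartments, and the difference of the genotype effect between them, were tested in a fit with each tumour as a block, which left 4 degrees of freedom. Both compartments of a tumour carry the same genotype and number in their titles, which pairs them, and their deviations from the group means correlated at 0.092 to 0.45. P-values were adjusted over all 13275 genes. The code was tested on simulated data.

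The 10 genes, the gene lists and the tests were chosen with earlier results of these data known. Named are all members, up to 4 genes past the threshold per list and comparison with the smallest p, for a few lists without a call the 2 genes nearest to one, and the 2 genes most like each member. The other settings tried were Agilent's processed signals, quantile scaling of the average intensity of the 2 channels, other filters on dim probes, the mean over probes, each compartment fitted alone, tumour as a random block or no block, the deposited table, each array or tumour left out, and, chosen after seeing the data, ratios scaled between arrays and the second probes of Zeb2, Prrx1 and Cdh2. The quantile scaling leaves each probe's ratio unchanged, so it could alter only which probe stood for a gene.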

Additional observations from a re-analysis of the deposited data

How the results depend on the processing

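With 3 arrays a group, calls near the threshold were unstable, and signals near background limit Twist1, Foxc2 and Cdh1. Zeb1 and Prrx1 in KO tumours, and Marveld3, Tjp3, Cldn3, Grhl1 and Itga5 in stroma, kept their calls under every setting run for them. Some of those settings left a gene's ratios as they were, so the settings are not independent checks. Genes called in epithelium (1) numbered 0 with Agilent's processed signals, with probes above background on all 12 arrays, with the compartment fitted alone, in the deposited table and without any single array. Genes called in stroma (859) numbered 292 with the compartment alone and 174 to 883 with 1 array left out (174 without WT replicate 1, 311 without KO replicate 1, 359 without WT replicate 2, 514 without KO replicate 3). With tumour as a random replicate block (correlation 0.23) they numbered 829, and Prrx1 was no longer called, which left 0 members. The member count of 1 in stroma was also 0 with processed signals, no filter, probes above background on all 12 arrays and the compartment alone, and 0 to 1 with an array left out. The 5 members higher in stroma of KO tumours, Twist1 counted here, numbered 0 with the filter on all 12 arrays, which removes them from the test, and 2 without any 1 KO tumour, when genes called (2683) numbered 1054 to 1213. In WT tumours the 1 gene called was lost with processed signals, the filter on all 12 arrays, no replicate block and any tumour left out (0 in each). Genes called for the difference of differences (0) numbered 29 with no filter, 90 with the filter on all 12 arrays, 50 with no replicate block, 168 with ratios scaled between arrays and 0 to 150 with a tumour left out (150 without WT replicate 3), with 0 to 1 member. The 11 epithelial genes lower in KO stroma numbered 5 with the compartment alone and 5 to 13 with an array left out. The 3 mesenchymal genes higher there numbered 1 with the filter on all 12 arrays and 1 to 6 with an array left out, and the 13 higher in KO tumours numbered 5 to 10 with a tumour left out. The replicate block changed no other call of a member.

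Uncalled differences changed sign as follows. In epithelium Snai1 gave 0.169 with processed signals, and Twist1 gave -0.193 with processed signals, -0.31 in the deposited table and -0.035 with scaled ratios. Prrx1's second probe gave 0.0313 there. With an array left out, the epithelial differences ranged from -0.319 to 0.294 for Snai1, -0.136 to 0.251 for Twist1, -0.773 to 0.0314 for Twist2, -1.05 to 0.143 for Zeb1 and -0.748 to 0.201 for Cdh2, and the stromal difference of Snai2 from -0.517 to 0.0324. In WT tumours Zeb2's second probe gave 0.481, and Twist2 ranged from -0.259 to 0.722 with a tumour left out. The difference of differences of Snai2 was -0.0657 with processed signals, -0.06 with scaled ratios and -0.4 to 0.243 with a tumour left out. Except where the filter removes genes or fewer arrays are fitted, the cause was not tested.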
